A study of Mus musculus with 30 samples.

Results

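TRα1PV macrophages given lipopolysaccharide (LPS) and interferon-γ (M1) were compared directly with TRα1PV macrophages given interleukin-4 (M2), across all genes. The 10 libraries, 5 per state, were taken by genotype, state and replicate number in the sample titles, from 30 libraries of WT and TRα1PV cells in 3 states. The cells were bone marrow-derived macrophages, grown for 7 days from mouse bone marrow in medium that held 15 or 20% L929-conditioned medium. M1 cells received 20 ng/mL LPS together with 20 ng/mL interferon-γ, and M2 cells 20 ng/mL interleukin-4. The 5 unstimulated TRα1PV libraries (M0) and the 10 WT libraries in M1 and M2, grown and stimulated alike, serve as references. The TRα1PV mice carry a mutant thyroid hormone receptor α1 and are called transgenic in the labels, which do not give the zygosity, sex, age, number of animals, the L929 share of each library or the time between stimulation and harvest. Every library is a bulk sample of poly(A) RNA, in which fewer cells of a type and less RNA per cell cannot be told apart. Where numbered biological replicates are not separate animals, p-values measure only the spread between these samples.

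By way of background, LPS is sensed by TLR4 with CD14 and MD-2 and activates NF-κB, the interferon regulatory factors and the MAP kinases, and the interferon-β made in response acts back on the cell through its own receptor, as interferon-γ does through another. Interleukin-4 acts through the interleukin-4 receptor and STAT6, which switches on genes of tissue repair, lipid uptake and endocytosis in macrophages. The PV mutation is a frameshift at the carboxyl end of the receptor. The mutant protein does not bind thyroid hormone (T3) and interferes with normal receptors at T3-responsive genes.

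The M1 libraries held between 30667000 and 41544000 reads in genes and the M2 libraries between 32276000 and 50239000, to 5 digits. Of 55414 genes, 15686 had enough reads to be tested. M1 and M2 lay apart on the first principal component of the 10 libraries, which took 91.4% of their variance, against 1.79% for the second. Macrophage markers were read in every library: 11 markers (F4/80, M-CSF receptor, CD68 and others) summed to 8970 to 11600 CPM (reads of a gene after scaling each library to the same size) in M1 and to 20800 to 23100 CPM in M2. Short panels of defining markers of B, T and NK, mast, eosinophil and erythroid cells summed to at most 4.36 CPM in any M1 or M2 library. Wider lists summed to 5.03 to 8.46 CPM in M1 and 12.7 to 16.6 CPM in M2 for B cells, and to 62.3 to 98.0 CPM and 85.6 to 119 CPM for erythroid cells and megakaryocytes, the latter mostly Pf4. Endothelial markers summed to 80.4 to 100 CPM in M1 and 27.2 to 38.8 CPM in M2, nearly all of it Kdr and Pecam1, with Emcn at 0 and Tek at or near 0. The wider endothelial list summed to 173 to 231 CPM in M1 and 547 to 650.0 CPM in M2, mostly Vwf in M2. Neutrophil and precursor markers summed to 158 to 203 CPM in M1 and 266 to 381 CPM in M2. In M1 most of this was the receptor gene Csf3r, at 169 ± 18 CPM, and Elane, which defines precursors, was at 0. In M2 Csf3r read 155 ± 6.87 CPM, and most of the rest was the granulocyte genes S100a9, S100a8 (26.7 to 59.6 CPM), Ngp (20.1 to 39.7 CPM) and Ltf (7.51 to 17.5 CPM). Elane read 0.914 to 2.4 CPM in M2 and 1.47 to 4.34 CPM in M0. Mpo of the same panel read 0.108 to 0.353 CPM in M1, 5.88 to 15.8 CPM in M2 and 6.9 to 18.9 CPM in M0. The neutrophil and precursor panel summed to 279 to 476 CPM in M0. A short panel of dendritic cell markers summed to 41.0 to 98.6 CPM in M1 and to 1.31 to 1.88 CPM in M2. Nearly all of it was Ccr7 in M1, while Flt3 and Siglech were at or near 0. The wider dendritic list went the other way, at 81.6 to 158 CPM in M1 and 235 to 306 CPM in M2. The part of other cells in the differences below was not tested.

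Thra, which encodes the mutated receptor, stood at 53.8, 45.4, 51.7, 48.9 and 46.1 CPM in M1 replicates 1 to 5 and at 46.3, 43.3, 43.6, 41.7 and 42.1 CPM in M2. The ranges overlapped, and the log2 fold change of M1 over M2 was 0.18 ± 0.095, which edgeR did not call (adjusted p = 0.0803) unless the replicate number was a block (adjusted p = 0.0437 over all libraries and 0.0254 within genotype) or the other groups were left out of the fit (0.016). Counts per gene cannot tell the mutant from the normal allele. Thrb, which encodes the related receptor TRβ, had 2 reads in all 5 M1 libraries together and 4.26, 5.95, 4.83, 4.64 and 4.65 CPM in the M2 libraries. The ratio of M2 to M1 was 339, with a 95% exact interval of 93.6 to 2800 that covers counting error only. Thrb was also low in M0, at 0.184 ± 0.11 CPM, so the M2 libraries were the high ones.

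In the fit, 12678 of the 15686 genes (80.8%) were called, that is, reached a Benjamini-Hochberg adjusted p under 0.05 in edgeR's quasi-likelihood test: 6249 (39.8%) were higher in M1 and 6429 (41.0%) higher in M2. With library totals as the only scaling, an alternative chosen after seeing the data, the median log2 fold change of all genes moved from -0.04 to -0.405, and the split became 4524 higher in M1 and 8236 higher in M2. Small differences in either direction therefore depend on the scaling, and changes below are relative to the trimmed-mean (TMM) scale. Differences tested against a 2-fold change numbered 5794, with 2834 genes (18.1%) higher in M1 and 2960 (18.9%) higher in M2. At a fitted change of at least 16-fold, 579 called genes were higher in M1 and 446 in M2, and at 256-fold, 104 were higher in M1 and 48 in M2. The 5 M1 and 5 M2 libraries did not overlap in 70.7% of all tested genes. In the text a called gene is said to be higher in M1 or in M2, and log2 fold changes are M1 over M2 ± SE, so that negative values mean more RNA in M2.

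**Figure D1:**
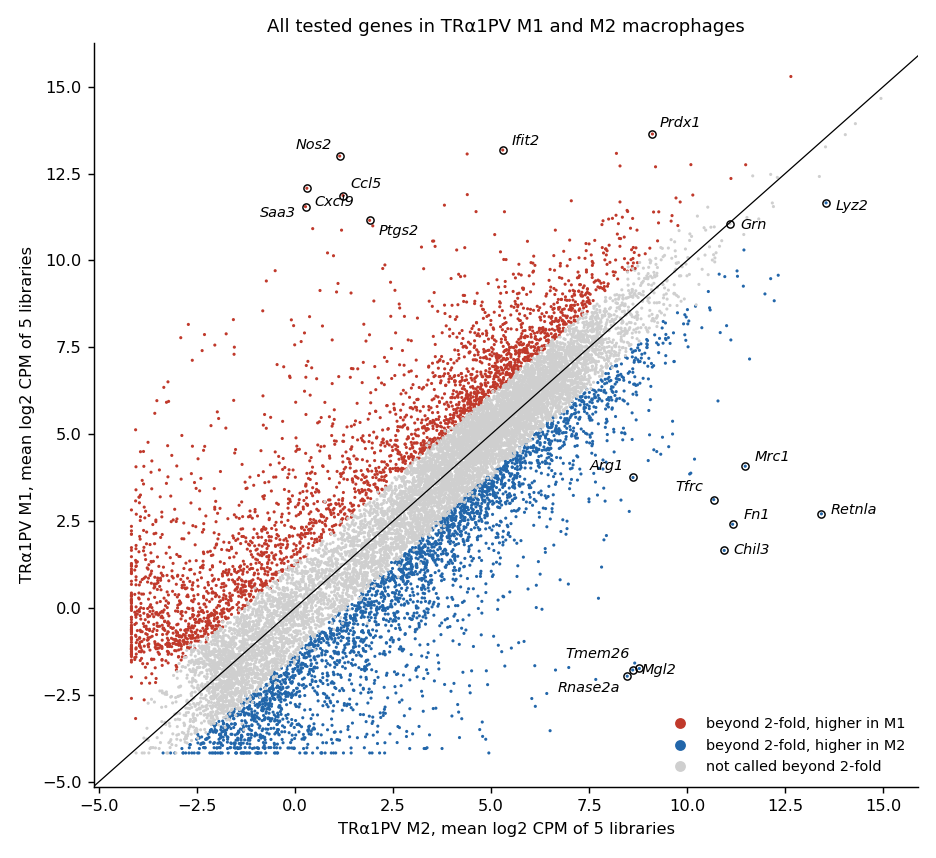
Mean log2 CPM of each of 15686 tested genes in 5 TRα1PV M2 libraries (x axis) and 5 TRα1PV M1 libraries (y axis). Red and blue points passed the test against a 2-fold change (2834 and 2960 genes), the line marks equal levels, and circled genes are named in the text, with Grn on the line.

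Very large differences rest on a low level in the other state. For 28 named genes at 100 CPM or more in M1 and at least 256-fold higher there, the M2 level was, as a median, 0.0744 to 0.131% of the M1 level in the 5 M2 libraries, and M2 replicate 2 was the lowest library for 14 of them. For 10 such genes higher in M2, the M1 level was 0.0814 to 0.0965% of the M2 level. Whether part of these few reads came from other libraries was not tested, and the fold changes of such genes rest on these few reads.

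On the M1 side the rule for named genes, the 12 largest differences among genes of 3 or more in mean log2 CPM, gave Cxcl9, Nos2, Saa3, Ccl5, Oasl1, Ly6a, Slfn4, Cnn3, Tgtp1, Clic5, Ptgs2 and Procr. Cxcl9 encodes a chemokine induced by interferon-γ that attracts T cells. It read 4133, 4045, 4310.1, 4211 and 4997 CPM in M1 and 1.69, 0.112, 2.34, 2.16 and 1.76 CPM in M2, where replicate 2 was the low library, and its log2 fold change was 11.37 ± 0.38 (edgeR, adjusted p = 4.91e-22). Nos2, the inducible nitric oxide synthase, read 9332, 7298, 8685, 7282 and 8721 CPM in M1 and 3.3, 0.168, 5.09, 4.23 and 3.04 CPM in M2, with the same low library (log2 fold change 11.34 ± 0.48, adjusted p = 1.76e-19). Saa3, an acute-phase serum amyloid A protein made by macrophages, differed by 11.27 ± 0.62. The interferon-induced genes were Oasl1 (10.32 ± 0.31), Slfn4 (10.13 ± 0.33) of the Schlafen family, Tgtp1 (9.89 ± 0.23), an immunity-related GTPase, and Ly6a (10.18 ± 0.28), which encodes the surface protein Sca-1. Ptgs2, cyclooxygenase 2, differed by 9.28 ± 0.22 and Procr, the endothelial protein C receptor, by 9.25 ± 0.31. Cnn3, an actin-binding calponin, differed by 10.11 ± 0.19 and Clic5, a chloride intracellular channel protein, by 9.67 ± 0.23.

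On the M2 side the same rule gave Tmem26, Retnla, Rnase2a, Mgl2, Scn3a, Chil3, Fn1, Tfrc, Prps1, Mrc1, Clec10a and Rnf144b. Retnla encodes RELMα, a secreted protein of alternatively activated macrophages. It read 12639, 11759.6, 10222, 10104 and 10535 CPM in M2 and 6.53, 6.48, 8.83, 5.89 and 5.15 CPM in M1, so the lowest M2 library exceeded the highest M1 library by far, and its log2 fold change was -10.72 ± 0.39 (edgeR, adjusted p = 3.1e-21). Tmem26, a transmembrane protein gene, differed by -10.73 ± 0.20, and Scn3a, a voltage-gated sodium channel subunit, by -10.45 ± 0.25. Chil3, the chitinase-like protein Ym1, read 2595, 1954, 1560.3, 1839 and 2057 CPM in M2 and 3.41, 3.18, 3.15, 3.1 and 2.65 CPM in M1 (-9.34 ± 0.36). Fn1, fibronectin, read 2929.5, 2319, 1762, 2095 and 2504 CPM in M2 and 5.24, 4.32, 5.76, 3.63 and 8.39 CPM in M1 (-8.72 ± 0.32). Neither gene had an M1 library near the M2 range. The lectin genes Mgl2, Mrc1 (the mannose receptor CD206) and Clec10a differed by -10.65 ± 0.21, -7.38 ± 0.18 and -6.66 ± 0.16. Tfrc, the transferrin receptor that takes up iron, read 1540.5, 1698, 1576, 1817 and 1579.6 CPM in M2 and 6.53, 8.84, 7.29, 9.22 and 12.2 CPM in M1 (-7.54 ± 0.20). Prps1, which makes phosphoribosyl pyrophosphate for nucleotide synthesis, differed by -7.52 ± 0.11, and Rnf144b, a ubiquitin ligase, by -6.4 ± 0.14.

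**Figure D2:**
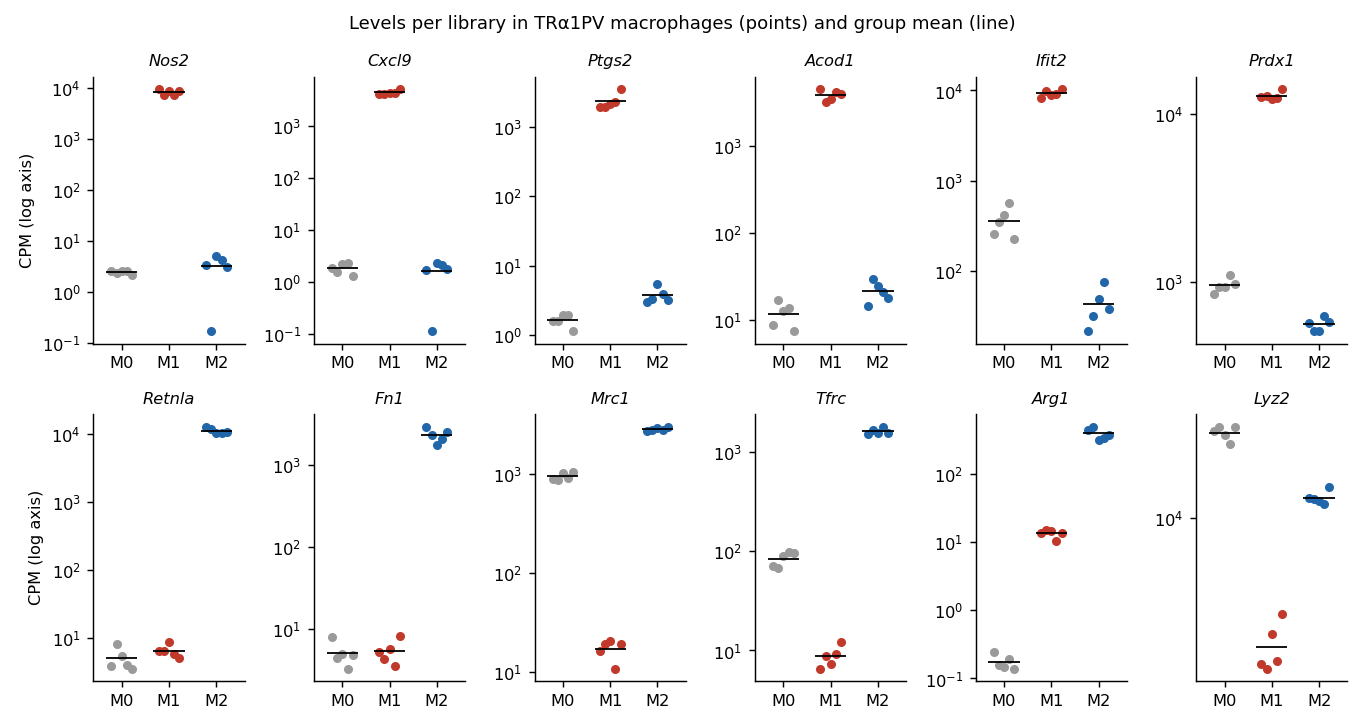
CPM on log axes in the 5 M0, 5 M1 and 5 M2 TRα1PV libraries (points, replicates 1 to 5 from left to right) with the group mean (line) for 6 genes higher in M1 (top row) and 6 higher in M2 (bottom row). M1 and M2 do not overlap for any of the 12 genes, Nos2 and Cxcl9 are low in M2 replicate 2, and Arg1 is above M0 in M1 as well as in M2.

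Promoters of the leading genes are shown because the stimuli act through factors with known binding words, the bases before the annotated start being taken from RefSeq on GRCm38.p6 and capitals marking a match. Nos2 had no entry in that table. The words searched on both strands were GAAA, any 2 bases and GAAA (the interferon-stimulated response element), TTC, any 4 bases and GAA (STAT6 type), and GGG, any 2 bases and TTTCC (a strict NF-κB type). Matches to different words can overlap.
Cxcl9, M1 side, chr5:92328080-92328329, minus strand: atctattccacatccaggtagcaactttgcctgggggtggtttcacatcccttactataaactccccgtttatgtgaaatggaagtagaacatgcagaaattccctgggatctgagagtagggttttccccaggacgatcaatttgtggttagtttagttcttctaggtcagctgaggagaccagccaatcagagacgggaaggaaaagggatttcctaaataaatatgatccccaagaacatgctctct
Saa3, M1 side, chr7:46715677-46715926, minus strand: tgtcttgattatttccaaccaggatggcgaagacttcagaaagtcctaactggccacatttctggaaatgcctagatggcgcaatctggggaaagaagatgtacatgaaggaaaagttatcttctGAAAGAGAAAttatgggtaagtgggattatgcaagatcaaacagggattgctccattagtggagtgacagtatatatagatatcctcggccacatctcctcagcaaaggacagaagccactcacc
Tmem26, M2 side, chr10:68723496-68723745, plus strand: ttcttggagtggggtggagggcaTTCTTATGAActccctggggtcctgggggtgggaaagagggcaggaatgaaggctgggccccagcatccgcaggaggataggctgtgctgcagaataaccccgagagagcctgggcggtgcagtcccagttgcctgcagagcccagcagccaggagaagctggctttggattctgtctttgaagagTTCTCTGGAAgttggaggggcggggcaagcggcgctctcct
Retnla, M2 side, chr16:48842359-48842608, plus strand: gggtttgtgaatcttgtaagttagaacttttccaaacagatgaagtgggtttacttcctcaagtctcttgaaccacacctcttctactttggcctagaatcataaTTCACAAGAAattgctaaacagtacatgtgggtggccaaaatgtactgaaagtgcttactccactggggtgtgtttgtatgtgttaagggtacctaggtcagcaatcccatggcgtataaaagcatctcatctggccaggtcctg

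Saa3 held GAAAGAGAAA, an interferon-stimulated response element word, 125 to 116 bases before its start. Tmem26 held the STAT6-type words TTCTTATGAA and TTCTCTGGAA, and Retnla held TTCACAAGAA 145 to 136 bases before its start. In the Cxcl9 window none of these words was found. Of 10442 tested genes with a promoter entry, 3.3% held the interferon-stimulated response element word. The share was 7.05% among genes beyond 2-fold higher in M1, 2.52% among those higher in M2, and 11% and 2.67% among those also at least 8-fold different. The STAT6-type word was held by 5.65% of all promoters, 5.26% on the M1 side and 7.16% on the M2 side, and by 7.11% and 10.1% at 8-fold. The NF-κB-type word was held by 1.74% of all, 2.84% on the M1 side and 1.34% on the M2 side, and by 2.42% and 1.71% at 8-fold. A wider NF-κB-type word (GGG, any 4 bases and TCC) was held by 23.7% of all, 26.2% and 23%, and by 24.1% and 21.0% at 8-fold. These shares are descriptions of letters in a window, and a match is not a bound site.

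Gene lists were then counted against the background of all genes (39.8% higher in M1, 41.0% higher in M2, median log2 fold change -0.04). The lists were written from general knowledge but with earlier results of these data known, so their counts are descriptions. All 38 tested members of the list of classical activation effectors, of 40 listed, were higher in M1 (median 4.55), and 37 of them beyond 2-fold. With library totals as the only scaling 37 of the 38 were called. The cytokine gene Il12b, the interleukin-12 p40 subunit, differed by 11.31 ± 0.46, Il1a by 4.15 ± 0.25, and Acod1, the enzyme that makes itaconate, by 7.47 ± 0.29. Marco, a scavenger receptor, differed by 6.52 ± 0.41 and the checkpoint ligand gene Cd274 (PD-L1) by 4.43 ± 0.13. Of 44 tested alternative activation effectors (46 listed), 37 were higher in M2 and 7 higher in M1 (median -4.13). Arg1, the arginase that competes with Nos2 for arginine, read 456, 503, 321, 340.2 and 375 CPM in M2, 13.9, 15, 14.6, 10.4 and 13.8 CPM in M1 and 0.176 ± 0.0445 CPM in M0. It was higher in M2 by a log2 fold change of -4.88 ± 0.23, and the M1 libraries were themselves all above the M0 libraries. Exceptions on the M1 side were Il1rn, the interleukin-1 receptor antagonist (6.85 ± 0.17), Tgm2, transglutaminase 2 (3.91 ± 0.12), and Ch25h, cholesterol 25-hydroxylase (3.53 ± 0.30).

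**Figure D3:**
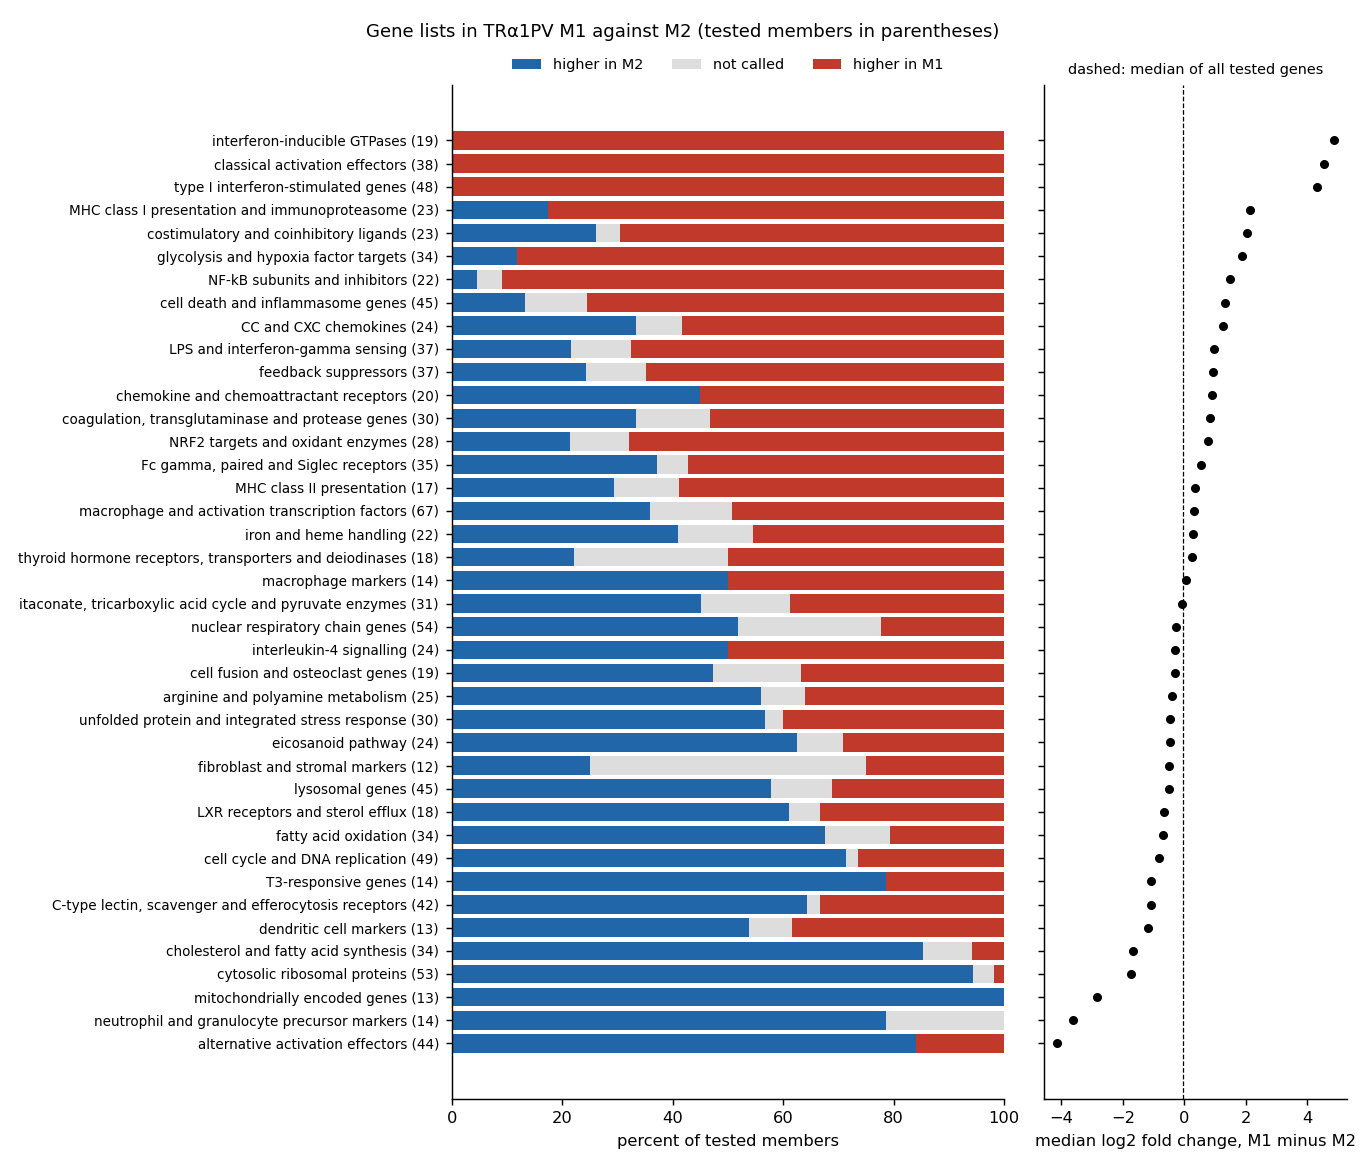
Share of tested members called higher in M1 (red), higher in M2 (blue) or not called (grey) for each gene list with at least 10 tested members, and the median log2 fold change of the list (right). Interferon-inducible GTPases, classical activation effectors and type I interferon-stimulated genes are entirely red, mitochondrially encoded genes entirely blue, and the dashed line is the median of all genes, -0.04.

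Genes of the machinery that senses the stimuli were counted in the same way, beside 80.8% of all tested genes called in either direction. Of 37 genes of LPS and interferon-γ sensing, 25 were higher in M1 and 8 in M2 (23 and 13 with library totals as the only scaling). The co-receptor gene Cd14 was higher in M1 (2.39 ± 0.20), whereas Ly96, which encodes MD-2, was not called (-0.26 ± 0.25). The interferon-γ receptor chain gene Ifngr1 was higher in M2 (-2.44 ± 0.066), at 62 ± 2.58 CPM in M1, 337 ± 19.6 CPM in M2 and 354 ± 28.7 CPM in M0. Among other Toll-like receptors, Tlr9, for unmethylated DNA, was higher in M1 (4.41 ± 0.088), and Tlr8 (-4.54 ± 0.27) and the flagellin receptor gene Tlr5 (-2.9 ± 0.14) were higher in M2. The 24 genes of interleukin-4 signalling were split, with 12 higher in M1 and 12 in M2. The transcription factor genes Egr2 (-8.96 ± 0.14), Irf4 (-8.67 ± 0.21), Myc (-3.85 ± 0.18) and Pparg (-3.46 ± 0.10), all known to be induced by interleukin-4, were higher in M2. Il13ra1, which encodes the receptor chain shared with interleukin-13, was higher in M1 (5.56 ± 0.19). Suppressors of cytokine signalling were split, with Socs3 higher in M1 (8.27 ± 0.21) and Socs2 higher in M2 (-4.25 ± 0.18).

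Of 22 NF-κB subunits and inhibitors, 20 were higher in M1 and 1 in M2. The leading members were inhibitors or atypical subunits: Bcl3 (3.18 ± 0.10), Nfkbie (3.16 ± 0.14), Nfkbia (3.12 ± 0.083) and the deubiquitinase gene Tnfaip3 (A20, 2.97 ± 0.075). Rel was not called (-0.10 ± 0.10), and Ikbkb was higher in M2 (-0.29 ± 0.043). Of 67 macrophage and activation transcription factors, 33 were higher in M1, 24 in M2 and 10 were not called, and with library totals as the only scaling 30 and 32, so that no direction is given. Irf7 (6.73 ± 0.25), Irf1 (3.21 ± 0.083) and Runx3 (6.46 ± 0.18) were higher in M1, and Ahr (-6.19 ± 0.12) and Epas1 (-5.08 ± 0.18), which encode the aryl hydrocarbon receptor and HIF-2α, higher in M2. Of 37 feedback suppressors, 24 were higher in M1 and 9 in M2. The MAP kinase phosphatase gene Dusp1 was higher in M1 (4.67 ± 0.16) and Dusp4 higher in M2 (-5.0 ± 0.21).

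All 48 tested type I interferon-stimulated genes (49 listed) were higher in M1 (median 4.34), as were all 19 tested interferon-inducible GTPases (20 listed, median 4.87), and each of these calls held with library totals as the only scaling. Ifnb1, the interferon-β gene, read 4.09, 4.09, 5.04, 3.93 and 4.41 CPM in the M1 libraries and had no read in the M2 libraries, so that it was at least 287-fold higher against a floor of 3 reads over the 5 M2 libraries. Ifit2, which inhibits translation of viral RNA, read 8273, 9877, 8857, 9227 and 10316 CPM in M1 and 21.3, 31.6, 49.2, 75.3 and 37.3 CPM in M2 (7.76 ± 0.31). Rsad2, viperin, differed by 8.58 ± 0.30, Mx1 by 7.74 ± 0.23 and Usp18, which restrains interferon receptor signalling, by 5.21 ± 0.18. Among the GTPases, Iigp1 differed by 8.94 ± 0.31, Gbp4 by 7.03 ± 0.23 and Irgm1 by 3.85 ± 0.12. In M0, Ifit2 read 361 ± 137 CPM, Mx1 154 ± 47.9 CPM and Irf7 118 ± 33.5 CPM, against 42.9 ± 20.7, 14.4 ± 4.1 and 25.6 ± 8.93 CPM in M2.

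Of 24 tested CC and CXC chemokines, 14 were higher in M1 and 8 in M2. The ligands of CXCR3, Cxcl9, Cxcl10 (9.11 ± 0.30) and Cxcl11 (11.3 ± 0.24), and Ccl5 (10.58 ± 0.30) were higher in M1. Ccl6 was higher in M2, at 1041, 1251, 1109, 887 and 1101 CPM against 12.1, 17.5, 15, 11 and 17.7 CPM in M1 (-6.2 ± 0.15). Cxcl1, a neutrophil chemokine, was not called and read 0.112 ± 0.124 CPM in M1 and 0.128 ± 0.0774 CPM in M2. Of 20 tested chemoattractant receptors, 11 were higher in M1 and 9 in M2. Ccr7, which guides cells to lymph nodes, read 84.8, 36.3, 50.8, 60.5 and 92.8 CPM in M1 and 0.0602 ± 0.0474 CPM in M2 (10.0 ± 0.35). The formyl peptide receptor gene Fpr2 (7.92 ± 0.36) was also higher in M1, and Cxcr4 (-3.67 ± 0.16) and S1pr1 (-3.49 ± 0.20) were higher in M2.

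Antigen presentation genes were counted by class. Of 23 MHC class I and immunoproteasome genes, 19 were higher in M1 and 4 in M2 (median 2.14). The peptide transporter gene Tap1 differed by 4.04 ± 0.11 and Nlrc5, the class I transactivator, by 3.37 ± 0.10, whereas the chaperone genes Canx (-1.01 ± 0.085) and Pdia3 (-0.45 ± 0.085) were higher in M2. Genes of the H2 region have near-identical copies, and their counts are uncertain. Of 17 MHC class II genes, 10 were higher in M1 and 5 in M2, and 7 and 7 with library totals as the only scaling, so that no direction is given for the class. H2-Ab1 was higher in M1 (2.15 ± 0.29), while Cd74, the invariant chain, was higher in M2 (-0.69 ± 0.26), a call that was lost without M1 replicate 2 (edgeR, adjusted p = 0.0571) or M2 replicate 1 (0.0526). Of 23 costimulatory and coinhibitory ligands, 16 were higher in M1 and 6 in M2. Cd40 was higher in M1 (5.44 ± 0.12). The PD-1 ligands were divided: Cd274 was higher in M1, while Pdcd1lg2 (PD-L2) read 114, 108, 97.2, 84.4 and 105 CPM in M2, 12.1, 13.4, 13.4, 9.6 and 13.1 CPM in M1 and 0.253 ± 0.113 CPM in M0 (-3.04 ± 0.11), above M0 in every M1 and M2 library.

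Respiratory chain genes of the mitochondrial and the nuclear genome were counted apart. All 13 tested mitochondrially encoded genes were higher in M2 (median -2.85). All genes with a symbol that begins with mt-, which include these 13, took 0.705% ± 0.201 (SD, n = 5) of the reads in genes in M1 and 3.38% ± 0.57 (SD, n = 5) in M2. The shares did not overlap (exact permutation test, two-sided, p = 0.00794, the smallest that 5 against 5 allows, and adjusted p = 0.0159 over 6 library measures). mt-Nd2, a complex I subunit, read 36.3, 75.6, 42.2, 76.7 and 103 CPM in M1 and 1165, 2388, 2520.4, 1429.8 and 1720.1 CPM in M2 (-4.79 ± 0.55). The share of reads that aligned to more than 1 place was also lower in M1, 5.87% ± 0.323 (SD, n = 5) against 7.16% ± 0.663 (SD, n = 5) in M2 (adjusted p = 0.0159 by the same exact test), and its part in counts of genes with near copies was not tested. Of 54 nuclear respiratory chain genes, 28 were higher in M2, 12 higher in M1 and 14 not called (median -0.26), and with library totals as the only scaling 39 were higher in M2 and 2 in M1 (median -0.63). Ndufs8 (-1.39 ± 0.11) and Ndufb5 (-1.23 ± 0.07) of complex I were higher in M2, and Cycs, cytochrome c, was higher in M1 (1.7 ± 0.087).

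Of 34 genes of glycolysis and hypoxia factor targets, 30 were higher in M1 and 4 in M2 (median 1.88). Pfkfb3, which raises the glycolytic activator fructose 2,6-bisphosphate, differed by 4.21 ± 0.10, and the lactate exporter gene Slc16a3 by 4.19 ± 0.11. The lactate transporter gene Slc16a1 (-2.06 ± 0.13) and Ldhb (-2.19 ± 0.15) were higher in M2. Adm, adrenomedullin, read 5.52, 4.09, 5.47, 3.59 and 7.25 CPM in M1 and had no read in M2, at least 351-fold higher against the same floor. Of 31 genes listed for itaconate, the tricarboxylic acid cycle and pyruvate, 12 were higher in M1 and 14 in M2, and 6 and 20 with library totals as the only scaling. Acod1 and Irgm1, counted here on the M1 side, are not enzymes of the cycle, and Irgm1 is one of the GTPases above. Idh1 (-3.29 ± 0.071) and Idh2 (-2.92 ± 0.091), the NADP-dependent isocitrate dehydrogenases, were higher in M2, and Dlst (0.076 ± 0.046) and Sucla2 (-0.085 ± 0.09) were not called. In arginine and polyamine metabolism, 9 of 25 genes were higher in M1 and 14 in M2. Ass1, which regenerates arginine from citrulline, was higher in M1 (2.64 ± 0.18), and Srm, spermidine synthase, higher in M2 (-4.97 ± 0.22).

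Lipid genes were mostly higher in M2. Of 34 genes of cholesterol and fatty acid synthesis, 29 were higher in M2 and 2 in M1 (median -1.66). Fasn, fatty acid synthase, read 93.2, 101, 93.1, 90.3 and 107 CPM in M2 and 3.73, 3.26, 3.65, 3.1 and 3.52 CPM in M1 (-4.81 ± 0.13). Idi1 of the sterol pathway was higher in M2 (-4.18 ± 0.22), whereas Srebf1 was not called (0.14 ± 0.13). Of 34 genes of fatty acid oxidation, 23 were higher in M2 and 7 in M1. Fabp4 (-3.57 ± 0.17) and Cd36 (-2.17 ± 0.17), which bind and take up fatty acids, were higher in M2, Acsl1, an acyl-CoA synthetase, was higher in M1 (3.56 ± 0.11), and Cpt2 was not called (-0.022 ± 0.078). Of 18 genes of LXR and sterol efflux, 11 were higher in M2 and 6 in M1. Apoe was higher in M2 (-1.83 ± 0.23) and Nr1h3, which encodes LXRα, higher in M1 (2.1 ± 0.18). In the eicosanoid pathway, with 15 of 24 genes higher in M2 and 7 in M1, the cyclooxygenases went opposite ways. Ptgs1 was higher in M2 (-5.2 ± 0.14) and Ptgs2 in M1, together with Ptges, prostaglandin E synthase (6.53 ± 0.20). Hpgd, which breaks prostaglandins down, was higher in M2 (-6.18 ± 0.38), and Alox5ap was not called (-0.002 ± 0.077).

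Of 22 genes of iron and heme handling, 10 were higher in M1 and 9 in M2. Besides Tfrc, Trf, transferrin (-4.42 ± 0.17), and Cd163, the haemoglobin scavenger receptor (-7.81 ± 0.39), were higher in M2. Hmox1, heme oxygenase 1 (3.41 ± 0.11), Cp, ceruloplasmin (3.5 ± 0.22), and Lcn2, which binds bacterial iron carriers (5.4 ± 0.36), were higher in M1. The ferritin light chain gene Ftl1 was not called (0.35 ± 0.20), though it was with the other groups left out of the fit (edgeR, adjusted p = 0.0147). Of 28 NRF2 targets and oxidant enzymes, 19 were higher in M1 and 6 in M2. Prdx1, a peroxiredoxin, read 12592, 12731, 12221, 12379.9 and 14022 CPM in M1 and 563, 510.0, 504, 626 and 577 CPM in M2 (4.52 ± 0.10). Gclc, the catalytic subunit of glutathione synthesis (-1.75 ± 0.083), and Cat, catalase (-1.19 ± 0.092), were higher in M2. Of 30 genes of the unfolded protein and integrated stress response, 17 were higher in M2 and 12 in M1. The serine synthesis genes were divided, with Phgdh higher in M2 (-5.11 ± 0.30) and Psat1 higher in M1 (1.66 ± 0.13).

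Of 53 cytosolic ribosomal protein genes, 50 were higher in M2, 1 was higher in M1 and 2 were not called (median -1.73). Rpl3 read 96, 88.6, 92.1, 77.1 and 89.2 CPM in M1 and 515, 424, 402, 440.4 and 449 CPM in M2 (-2.33 ± 0.11), against 417 ± 43.1 CPM in M0. Rps24 was the member higher in M1 (0.68 ± 0.062). Many of these genes have processed copies elsewhere in the genome, and reads that fit several places were given to no gene, so that their levels are uncertain. Of 49 genes of cell cycle and DNA replication, 35 were higher in M2 and 13 in M1 (median -0.82). The mitotic genes Cenpf (-6.05 ± 0.41), Ccna2 (-5.6 ± 0.37) and Ccnb2 (-4.76 ± 0.45) were higher in M2, and the cyclins of the G1 phase, Ccnd1 (4.02 ± 0.16), Ccnd2 (6.08 ± 0.20) and Ccne1 (4.93 ± 0.11), higher in M1. Ccnd1 read 828, 769, 738, 751 and 812 CPM in M1 and 58.6, 44, 37.7, 52.9 and 46.3 CPM in M2. Of 45 lysosomal genes, 26 were higher in M2 and 14 in M1 (31 and 9 with library totals as the only scaling). The proton pump subunit gene Atp6v0d2 was higher in M2 (-6.17 ± 0.22), and the protease genes Ctsh (2.6 ± 0.054) and Ctsc (1.68 ± 0.10) were higher in M1.

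Among cell death and inflammasome genes, 34 of 45 were higher in M1 and 6 in M2 (median 1.33), and 30 and 10 with library totals as the only scaling. Casp4, which encodes the mouse caspase-11 that detects cytosolic LPS, differed by 3.66 ± 0.13, the survival gene Bcl2l1 by 3.67 ± 0.11 and the nucleic acid sensor gene Zbp1 by 3.8 ± 0.19. Bcl2l11, which encodes the pro-death protein BIM, was higher in M2 (-1.66 ± 0.091), and Nlrp3 was not called (-0.21 ± 0.14), though it was without M1 replicate 1 (edgeR, adjusted p = 0.0471). Of 42 lectin, scavenger and efferocytosis receptors, 27 were higher in M2 and 14 in M1. Stab2, a hyaluronan receptor, was higher in M2 (-9.31 ± 0.23), and Mertk, which binds apoptotic cells through bridging proteins, was higher in M1 (1.86 ± 0.10). Of 35 Fc gamma, paired and Siglec receptors, 20 were higher in M1 and 13 in M2. With library totals as the only scaling they numbered 15 and 14, so that no direction is given. Fcgr1, the high-affinity IgG receptor, was higher in M1 (4.69 ± 0.12), and Cd300lb (-3.07 ± 0.063) and Cd300ld (-3.73 ± 0.12) were higher in M2. Of 30 coagulation, transglutaminase and protease genes, 16 were higher in M1 and 10 in M2, with Mmp14 (6.1 ± 0.22) and the inhibitor gene Timp1 (4.97 ± 0.40) higher in M1 and Timp2 higher in M2 (-4.88 ± 0.12). Of 19 cell fusion and osteoclast genes, 9 were higher in M2 and 7 in M1. Cdh1, E-cadherin (-6.32 ± 0.40), and Dcstamp (-3.15 ± 0.27) were higher in M2, and Ocstamp (2.78 ± 0.20) higher in M1.

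Macrophage markers were themselves divided, with 7 of 14 higher in M1 and 7 in M2. Csf1r, the M-CSF receptor, read 676, 469, 501, 570.4 and 441 CPM in M1 and 4201, 4015, 3800.0, 4055 and 4220.5 CPM in M2 (-2.93 ± 0.11). Lyz2, lysozyme, read 3288 ± 700.4 CPM in M1, 11972 ± 670.3 CPM in M2 and 21053 ± 1293 CPM in M0 (-1.86 ± 0.10). The 14 neutrophil and precursor markers had 11 members higher in M2, none higher in M1 and 3 not called. S100a9 read 88, 61.1, 43.1, 43 and 35.4 CPM in M2 and 4.27, 1.89, 2.18, 2.15 and 1.54 CPM in M1 (-4.49 ± 0.44), and Ltf, lactoferrin, differed by -5.46 ± 0.60. Csf3r, the most abundant of them, was not called (0.13 ± 0.091).

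Of 18 tested thyroid hormone genes, that is receptors, transporters and deiodinases (25 listed), 9 were higher in M1, 4 in M2 and 5 were not called, and with library totals as the only scaling 7 and 7, so that no direction is given. Slc7a8, an amino acid exchanger that also carries thyroid hormone, was higher in M1 (3.15 ± 0.078), and Rxra, the partner of the receptors, higher in M2 (-1.54 ± 0.078). Dio2, the deiodinase that makes T3, was higher in M2 (-1.6 ± 0.42) and read 5.18, 5.61, 11.5, 21.2 and 4.97 CPM there, with replicate 4 the high library, against 4.52, 3.5, 2.5, 3.4 and 2.16 CPM in M1. Of 14 tested T3-responsive genes (24 listed), 11 were higher in M2 and 3 in M1. Klf9, a transcription factor gene under direct control of T3, read 14.6, 17.3, 14.1, 13.8 and 11.5 CPM in M2, 0.538, 0.629, 0.787, 0.793 and 0.988 CPM in M1 and 1.09 ± 0.213 CPM in M0 (-4.23 ± 0.17). The 3 on the M1 side were Bcl3, Gpd2 (2.23 ± 0.083) and Me1 (1.48 ± 0.13).

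The unstimulated TRα1PV libraries place each difference on the M1 or the M2 side, as a description. Of 2834 genes beyond 2-fold higher in M1, the M0 mean lay below both states for 32.8%, between them for 1823 (64.3%) and above both for 82 (2.89%). Among the 1823, the M0 mean was nearer to M2 for 1512. Of 2960 genes beyond 2-fold higher in M2, M0 lay below both for 134 (4.53%), between for 1649 (55.7%) and above both for 1177 (39.8%), and nearer to M2 for 1304 of the 1649. Among the M2-side genes named above, Retnla (5.05 ± 1.93 CPM in M0) and Fn1 (5.15 ± 1.74 CPM) had M0 levels like those of M1, Mrc1 (951 ± 75.9 CPM) and Tfrc (84.7 ± 14.4 CPM) lay between the states, and Csf1r (4556 ± 522 CPM) had its highest mean in M0.

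**Figure D4:**
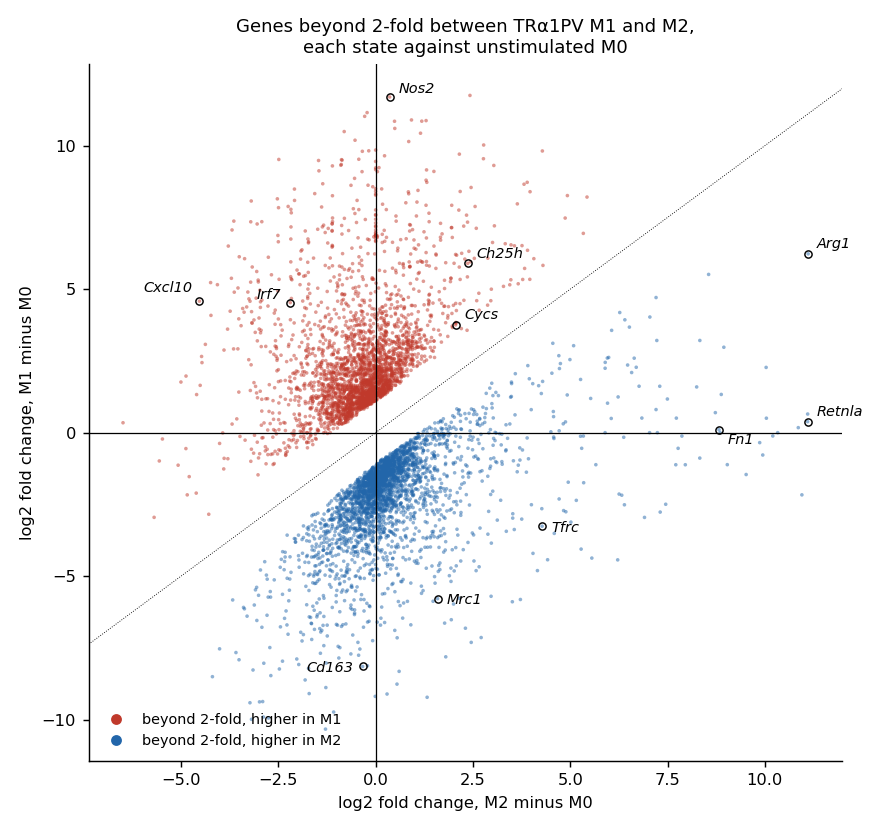
Log2 fold change of M2 over M0 (x axis) and of M1 over M0 (y axis) in TRα1PV macrophages for the 2834 genes beyond 2-fold higher in M1 (red) and the 2960 higher in M2 (blue). Both axes use the same 5 M0 libraries, so the position of the cloud is not a result; Nos2 lies near 0 on the x axis, Cd163 far below 0 on the y axis, and Arg1 above 0 on both.

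Some genes were read in 1 state only, defined as at least 1 CPM in each library of a state and at most 3 reads over the 5 libraries of the other. There were 58 on the M1 side and 32 on the M2 side. On the M1 side the most abundant was Pacsin1, a gene of membrane trafficking, with 4906 reads in M1 and 1 in M2 (ratio 6970, 95% exact interval 1250 to 276000). Mycl, a MYC family factor, followed with 3233 and 3 reads (ratio 1530, 524 to 7430) and Gipr, a receptor for an incretin hormone, with 3175 and 2 (ratio 2260, 624 to 18600). On the M2 side Kcnd3, a potassium channel gene, had 6070 reads in M2 and none in M1, at least 1420-fold higher against the floor of 3 reads. Cldn11, a claudin, had 5715 and 3 reads (ratio 1340, 458 to 6500) and Msx3, a homeobox gene, 2662 and 1 (ratio 1870, 336 to 74000).

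Differences were also grouped along the chromosomes. Runs of at least 4 neighbouring tested genes, in the order of the GENCODE M21 annotation, in which every gene was called and differed at least 4-fold in 1 direction numbered 50 on the M1 side and 26 on the M2 side. The longest held 17 genes on chromosome 1 and included Sp110, Sp140 and Sp100. A run of 13 on chromosome 11 held Irgm1, Tgtp1, Tgtp2 and Ifi47, and a run of 11 on the same chromosome held Slfn1, Slfn2, Slfn4 and other Schlafen genes. Runs of 9 with Ifi204 and Ifi205 on chromosome 1, 7 with the Oas genes on chromosome 5, and 6 with the Ifit genes on chromosome 19 were also on the M1 side. On the M2 side the longest were 7 Trav genes of the T cell receptor on chromosome 14 and 7 genes of the mitochondrial genome, followed by others that included 6 genes with Cd300a, Cd300lb and Cd300ld on chromosome 11 and 6 with Bex and Tceal genes on chromosome X. Members of such families are alike in sequence, and reads shared between copies were given to no gene.

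Not everything differed. The edgeR test left 3008 of 15686 genes uncalled, and for 588 genes the 95% interval of the fold change lay within 1.2-fold in either direction. The 6 most abundant of these were Mpeg1, Grn, Rsrp1, Pabpc1, Msn and Srrm2. On the scale of library totals alone these genes shift with the median of all genes, Grn to -0.40. Grn, progranulin, read 2413, 2059.7, 2221, 1814 and 2165 CPM in M1 and 2272, 2122, 2050.2, 2183 and 2315 CPM in M2 (-0.036 ± 0.11, 95% interval -0.26 to 0.19). Mpeg1, the pore-forming perforin-2 of macrophages, differed by 0.092 ± 0.068 (95% interval -0.046 to 0.23). Libraries of M1 varied more among themselves: over 7575 genes of 3 or more in mean log2 CPM in each state, the median SD of log2 CPM was 0.125 in M1 and 0.0891 in M2. The most variable genes with a known role were Timp1 in M1 (18.8, 55.6, 54.6, 15.6 and 11.2 CPM) and, in M2, Dio2, Cdkn1c (8.24, 6.48, 17.1, 32.1 and 6.3 CPM) and Oasl2 (10.6, 13, 21.6, 51.8 and 20.7 CPM), the last 3 being high in replicate 4.

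The same contrast in WT macrophages called 6097 genes higher in M1 and 6216 higher in M2, and the difference between genotypes was tested gene by gene. It was called for 3418 genes (21.8%): 1660 (10.6%) had a log2 fold change above, and 1758 (11.2%) below, that in WT. In 2341 of them the absolute change was larger in TRα1PV and in 1077 larger in WT, and 484 differed by at least 2-fold. Without M1 replicate 3 the genes below WT numbered 1168. Klf9 went further in TRα1PV, -4.23 ± 0.17 against -1.35 ± 0.12 in WT, a difference of -2.88 ± 0.21 (edgeR, adjusted p = 3.01e-10). In WT it read 25.3, 22.4, 29.7, 36.7 and 23.5 CPM in M1 and 66.4, 74.3, 69.6, 82 and 60 CPM in M2, so that the genotypes were apart in both states. Rin2, a Rab5 exchange factor, was higher in M1 by 3.11 ± 0.10 in TRα1PV and 1.3 ± 0.092 in WT (difference 1.82 ± 0.13, adjusted p = 3.01e-10). Hacd3, of fatty acid elongation, differed by -1.83 ± 0.091 and -0.52 ± 0.087 (difference -1.31 ± 0.12). Intu, of ciliary planar polarity, had the smaller change in TRα1PV, 2.81 ± 0.10 against 4.54 ± 0.10 (difference -1.74 ± 0.14). Apobec1, an RNA editing enzyme, differed by 2.32 ± 0.05 and 1.64 ± 0.049 (difference 0.68 ± 0.067).

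Ighm, the immunoglobulin μ chain, is a gene of B cells. It read 0.789, 0.943, 0.822, 0.34 and 1.14 CPM in M1 and 2.1, 3.84, 2.81, 1.71 and 3.14 CPM in M2 of TRα1PV and 1.3, 1.38, 1.3, 0.60 and 1.07 and 70.2, 66, 74.8, 71.1 and 63.2 CPM in WT, and the contrast was -1.71 ± 0.24 in TRα1PV and -5.93 ± 0.20 in WT (difference 4.22 ± 0.35, adjusted p = 2.62e-09). Together, 5 B cell markers summed to 0.555 to 0.929 CPM in M1 and 2.49 to 4.36 CPM in M2 of TRα1PV, and their part in this difference was not tested. Of the other tested B cell genes, Cd79b read 3.34 ± 0.725 CPM in TRα1PV M2 and 2.65 ± 0.219 CPM in WT M2, and Cd22 8.42 ± 1.7 and 6.38 ± 0.565 CPM. 

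For the lists, the background is 10.6% of genes above and 11.2% below WT. Of 48 type I interferon-stimulated genes, 2 were above and 1 below WT, and of 19 interferon-inducible GTPases none was above and 5 were below. Of 38 classical activation effectors, 3 were above and 3 below, and of 44 alternative activation effectors, 9 were above and 3 below. Of 49 cell cycle genes 13 were above and none below (median difference 0.45), of 34 glycolysis and hypoxia factor targets 13 above and 2 below (median 0.35), and of 22 NF-κB subunits and inhibitors 7 above and 2 below (median 0.23). Of 34 genes of cholesterol and fatty acid synthesis none was above and 8 were below (median -0.17). Of 13 mitochondrially encoded genes none was above and only 2 were below, with a median difference of -1.09. Socs3, the suppressor of cytokine signalling named above, was 8.27 ± 0.21 in TRα1PV and 6.33 ± 0.19 in WT (difference 1.94 ± 0.25), and Bcl3 3.18 ± 0.10 and 2.02 ± 0.094 (difference 1.17 ± 0.13). The differences in Nos2 (0.35 ± 0.49, adjusted p = 0.644) and Retnla (-0.25 ± 0.39, adjusted p = 0.683) were not called. Arg1 was called, with a smaller gap in TRα1PV (-4.88 ± 0.23) than in WT (-5.79 ± 0.24; difference 0.91 ± 0.29, adjusted p = 0.0258), a call that was lost in DESeq2 (adjusted p = 0.0859) and without WT M1 replicate 2 (0.0528), WT M1 replicate 3 (0.057) or WT M2 replicate 2 (0.0511). It read 6.25, 5.03, 6.0, 12.2 and 6.87 CPM in WT M1 and 328, 498, 308, 454 and 429 CPM in WT M2. Tfrc was called too (-6.3 ± 0.18 in WT, difference -1.24 ± 0.22), as was Thra (0.61 ± 0.10 in WT, difference -0.43 ± 0.14, adjusted p = 0.0256, and 0.0513 without WT M1 replicate 4).

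In 87 genes with a called difference the contrast was called in each genotype and in opposite directions: 36 were higher in M1 in TRα1PV and 51 higher in M2. The 3 with the smallest p among these are named after their values were seen. Cyth4, an Arf exchange factor, was 0.31 ± 0.077 in TRα1PV, or -0.06 with library totals as the only scaling, and -0.52 ± 0.077 in WT. Pltp, phospholipid transfer protein, read 111, 176, 219, 89.1 and 120.4 CPM in M1 and 85.4, 77.2, 73.9, 62.3 and 77.7 CPM in M2 of TRα1PV (0.92 ± 0.23), and 159, 115, 99.9, 70.3 and 83.1 and 352, 275, 282, 178 and 219.7 CPM in WT (-1.31 ± 0.23). Itgb8, the integrin β8 chain, was low throughout, at 0.176 ± 0.0554 CPM in M1 and 0.902 ± 0.158 CPM in M2 of TRα1PV (-2.33 ± 0.39), and at 2.24 ± 0.63 and 1.24 ± 0.476 CPM in WT (0.85 ± 0.28).

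**Figure D5:**
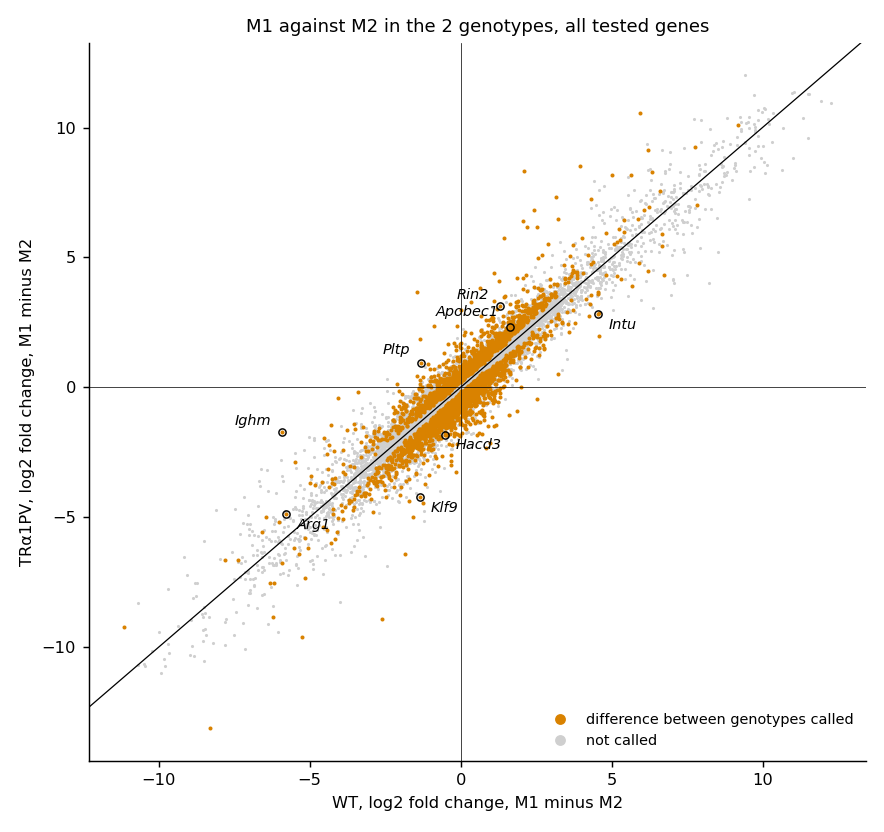
Log2 fold change of M1 over M2 in WT (x axis, 10 libraries) and TRα1PV (y axis, 10 libraries) for 15686 genes, with the 3418 genes whose difference between genotypes was called in orange. The line marks equal changes; Klf9 and Hacd3 lie below it, Rin2, Pltp and Ighm above it.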

How the data were processed

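Poly(A) RNA of 30 mouse macrophage libraries was sequenced, and the authors deposited 1 file of raw counts for each, with reads counted against Ensembl genes. The submitters' processing notes name HTSeq 1.99.2, HISAT2 2.2.1, Trimmomatic 0.39, the build GRCm39, R 4.3.2, limma, edgeR, FastQC 0.11.9 and Cufflinks, with no order. For the annotation release and the strand setting, nothing is stated in the sources used here, so antisense and overlapping genes cannot be told apart. Rows that name no gene (22.0 to 25.4% of an M1 library, 23.3 to 26.4% of an M2 library) were left out. Symbols came from a table that matched 52081 of 55414 genes. Its build differs from that of the counts, so only the RefSeq promoters carry coordinates, on GRCm38.p6.

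Genes were kept with filterByExpr (minimum count 10, minimum total 15), scaled with TMM factors and fitted over all 30 libraries with a mean per group (edgeR 4.0.16 in R 4.3.3, 24 residual degrees of freedom). The contrasts were TRα1PV M1 minus M2, the same against a 2-fold change (glmTreat), and its difference from WT, each two-sided with Benjamini-Hochberg adjustment over 15686 genes. SE was derived as the size of the log2 fold change over the root of its F statistic. CPM use the TMM-scaled library size. Exact permutation tests over 252 arrangements compared library measures. The script was checked on simulated counts in which a small set of genes changed, equally many up and down. That check does not cover the scaling where most genes differ. Every pair of libraries within TRα1PV M1 and within TRα1PV M2 differed beyond counting noise, so no pair was counted as 1 sample. Pairs within the other groups were not checked.

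The labels number replicates 1 to 5 under the tag batch, which was taken as a pairing, and the main fit has no block. Deviations of same-numbered M1 and M2 libraries correlated by -0.0145 to 0.212 (mean 0.0844, other numbers -0.0211), and 4 of 5 M1 libraries correlated best with their own number.

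Gene lists came from general knowledge (46 lists, 1347 members), and 20 symbols were replaced by the table's names. Named genes are Thra and Thrb, the 12 largest differences each way, from each list up to 6 called members with the largest change, up to 3 against its majority and up to 2 not called, the 8 smallest p for the difference from WT, and the leading genes of the remaining descriptions. The text names a part of these, and some results are not reported here. Members and lists were chosen with earlier results of these data known. Alternatives were RLE factors, no filter, DESeq2 1.42.0, limma-voom (limma 3.58.1), the compared groups alone, a replicate block and leaving out each library. Library totals as the only scaling were chosen after seeing the data. No list median changed when genes with 0 reads in a state were set to a bound of 3 reads over the group.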

Additional observations from a re-analysis of the deposited data

Results flagged for a closer look

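Of 360 groups of 5 libraries, for the named genes and the library measures, 24 held a library that stood apart from the other 4 by Dixon's criterion, which flags about 1 in 20 groups by chance. The library most often apart was M1 replicate 5, in 10 genes: Atp6v0d2 (23.3 CPM against 11.3 to 14.1), Ccnd2 (104 CPM against 65.8 to 73), Cxcl9 (4997 CPM against 4045 to 4310.0), Cxcr4 (10.8 CPM against 5.81 to 6.8), Cycs (199 CPM against 158 to 167), Il12b (532 CPM against 138 to 209), Mertk (584 CPM against 411 to 460.0), Prdx1 (14022 CPM against 12221 to 12731), Psat1 (109 CPM against 62.6 to 74.2) and Ptgs2 (3476 CPM against 1923 to 2272). M2 replicate 1 stood apart for Alox5ap (166 CPM against 138 to 145), Cd300ld (292 CPM against 224 to 239) and Intu (4.26 CPM against 5.27 to 5.64). M2 replicate 5 stood apart for Csf3r (167 CPM against 151 to 153), Mertk (149.6 CPM against 118 to 126) and S1pr1 (6.58 CPM against 4.52 to 4.71). M1 replicate 2 stood apart for Idh1 (49.3 CPM against 39.4 to 42.2) and S1pr1 (0.589 CPM against 0.378 to 0.432). M2 replicate 4 stood apart for Oasl2 (51.8 CPM against 10.6 to 21.6) and Stab2 (57.7 CPM against 70.8 to 75.6). In M1 replicate 4 it was Arg1 (10.4 CPM against 13.8 to 15). In M2 replicate 2 it was Nfkbia (55 CPM against 47.3 to 49.4). In M1 replicate 1 it was S100a9 (4.27 CPM against 1.54 to 2.18). In M2 replicate 3 it was Tgtp1 (0.474 CPM against 0.173 to 0.246). 

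For 48 of the 175 named genes the contrast of M1 against M2 differed between TRα1PV and WT in edgeR's test of the difference itself (adjusted p from 3.01e-10 to 0.0476), each with 5 libraries per group. Over all tested genes the share was 21.8%, and the named genes include some chosen for a small p or for opposite calls in this same test. The log2 fold change of M1 over M2 was above that in WT for 32: Adm (4.63 ± 1.18), Ighm (4.22 ± 0.35), Timp1 (2.4 ± 0.56), Pltp (2.24 ± 0.32), Socs3 (1.94 ± 0.25), Rin2 (1.82 ± 0.13), Bcl3 (1.17 ± 0.13), Runx3 (1.06 ± 0.25), Dusp1 (0.99 ± 0.20), Tgm2 (0.93 ± 0.16), Cnn3 (0.92 ± 0.32), Arg1 (0.91 ± 0.29), Ocstamp (0.86 ± 0.27), Cp (0.86 ± 0.29), Ccnd2 (0.83 ± 0.25), Cyth4 (0.82 ± 0.11), Ptgs1 (0.80 ± 0.19), Clec10a (0.73 ± 0.22), Apobec1 (0.68 ± 0.07), Pdcd1lg2 (0.63 ± 0.15), Slc16a3 (0.61 ± 0.14), Hmox1 (0.58 ± 0.14), Ccnd1 (0.55 ± 0.20), Csf3r (0.55 ± 0.13), Bcl2l1 (0.54 ± 0.14), Grn (0.47 ± 0.16), Cd300ld (0.45 ± 0.15), Rxra (0.39 ± 0.11), Irf1 (0.36 ± 0.11), Tlr9 (0.36 ± 0.11), Pfkfb3 (0.35 ± 0.12) and Nfkbia (0.31 ± 0.11). It was below that in WT for 16: Itgb8 (-3.18 ± 0.48), Klf9 (-2.88 ± 0.21), mt-Nd2 (-1.88 ± 0.67), Intu (-1.74 ± 0.14), Prps1 (-1.33 ± 0.15), Hacd3 (-1.31 ± 0.12), Tfrc (-1.24 ± 0.22), Il1a (-1.15 ± 0.36), Ahr (-1.14 ± 0.18), Idi1 (-1.03 ± 0.30), Gbp4 (-0.80 ± 0.26), Acsl1 (-0.77 ± 0.14), Ccl6 (-0.68 ± 0.18), Gclc (-0.47 ± 0.11), Thra (-0.43 ± 0.14) and Canx (-0.40 ± 0.12). The fitted value of Adm, with no read in TRα1PV M2, depends on the prior count and is no measure of size.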

How the results depend on the processing

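The counts of genes called in TRα1PV M1 against M2, in each direction and also against a 2-fold change, stayed within 1.5 times the reported counts under other size factors (RLE), no filter on low counts, DESeq2, limma-voom, the libraries of the compared groups alone, library totals as the only scaling and leaving out each library in turn, except that DESeq2 and limma-voom were not run against a 2-fold change. With the replicate number as a block over all libraries the calls were 6282 higher in M1 and 6454 higher in M2, and 6246 and 6448 with the block within genotype, and of the named genes the block changed the call of Thra alone. Without each library in turn they ranged from 6157 to 6224 and from 6331 to 6378. The test of the difference from WT moved more: 1026 genes were above WT without the filter on low counts, and leaving out each library gave 1115 to 1963 above and 1168 to 2198 below WT. Of 3149 values of single named genes under the alternatives, 3131 kept their side of the threshold and, where called, their direction. The direction of genes that stayed uncalled was not counted. With library totals alone, 4 values called on either scale turned their direction: Csf3r (-0.24), Cyth4 (-0.06), Dlst (-0.29) and Mpeg1 (-0.28). The median of all genes also moved on that scale. Of the genes not called otherwise, Alox5ap, Cpt2, Grn, Ly96, Nlrp3, Rel and Sucla2 were then called higher in M2. Genes read in 1 state only numbered 19 in M1 and 11 in M2 with 0 reads allowed in the other state, and 120 and 82 with 10. Runs of neighbouring genes numbered 135 on the M1 side and 109 on the M2 side at 2-fold, and 27 and 5 at 8-fold. Depth limits genes under about 1 CPM, where a library holds few reads.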
